A study of Mus musculus with 24 samples.

Results

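Ubd encodes FAT10, a small protein modifier of the ubiquitin family, and is 1 of the 19053 genes that the probes of these arrays name. Its value comes from ILMN_2426853, the only 1 of the 45281 probes whose platform gene symbol is Ubd. It was chosen for its differences between diets in white adipose tissue (WAT), so its values in WAT are given as a description, with no test. The arrays held RNA of male C57Bl/6J mice on a high-fat diet (HFD) enriched in the fatty acids EPA and DHA, on an HFD with corn oil, or on a low-fat diet. WAT and brown adipose tissue (BAT) were profiled on each diet, which made 24 arrays in 6 groups of 4. The mice of a diet had been picked to stand for its body weight, plasma triglyceride and plasma cholesterol, and the age, the time on the diet and the WAT depot are not given in the sources used here. The text on RNA extraction names skeletal muscle, while the tissue label of every array names adipose tissue, and whether same-numbered WAT and BAT arrays came from 1 mouse is not stated.

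FAT10 consists of a pair of ubiquitin-like domains in tandem. The enzyme UBA6 activates it and the enzyme UBE2Z passes it on to target proteins, which it marks for breakdown by the proteasome without being recycled as ubiquitin is. The gene lies at the edge of the major histocompatibility complex (MHC), is switched on in many cell types by interferon gamma together with tumour necrosis factor (TNF), and is expressed in mature dendritic cells and B cells. Mice that lack FAT10 have been described as lean, with raised energy expenditure.

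In the RefSeq annotation of GRCm38.p6 the gene is protein coding, lies on the forward strand of chr17:37193892-37196101 and spans 2210 bases. Its promoter is shown because the gene is known to be induced by cytokines, whose signals end in transcription factors such as those of the NF-kB and IRF families. The window covers 250 bases before and 50 bases after the annotated start, chr17:37193642-37193941, forward strand, read 5′ to 3′ from RefSeq. Capitals mark the matches to an IRF core and, after it, to the NF-kB consensus.
Ubd promoter: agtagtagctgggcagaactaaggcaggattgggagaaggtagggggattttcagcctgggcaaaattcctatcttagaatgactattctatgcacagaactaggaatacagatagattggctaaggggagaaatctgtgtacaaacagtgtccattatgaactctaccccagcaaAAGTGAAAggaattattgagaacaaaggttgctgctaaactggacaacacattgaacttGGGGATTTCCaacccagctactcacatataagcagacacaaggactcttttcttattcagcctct
The NF-kB consensus matched once, as GGGGATTTCC, starting at position -15 relative to the annotated start, and 8.46% of 32851 promoters of the same length hold such a match. The IRF core AANNGAAA matched once, as AAGTGAAA, at position -74, and 23.9% of the promoters hold it. Both strands were searched. The interferon gamma activated site TTCNNNGAA (8.30% of promoters) and the core of the interferon-stimulated response element, a pair of GAAA with 2 bases between them (3.44%), had no match in these letters. A match is a description of the sequence, and no occupancy was measured.

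The tissue labels were set against lists of marker genes. The mean deposited log2 level of the 7 brown adipocyte markers, among them Ucp1, was 7.82 to 10.15 over the WAT arrays and 11.79 to 12.42 over the BAT arrays. White adipocyte markers, 5 of 6 of which had a named probe, were at 10.37 to 10.77 in WAT and 9.19 to 9.99 in BAT. A pair of WAT arrays stood apart with raised brown adipocyte markers, EPA/DHA replicate 2 at 10.15 and corn-oil replicate 4 at 9.01, where the other WAT arrays were at 7.82 to 8.61. BAT arrays also carried skeletal muscle markers at levels that varied widely, from 7.79 to 12.44 on EPA/DHA, from 10.13 to 12.24 on corn oil and from 8.92 to 11.03 on the low-fat diet. The mean of the 7 liver markers varied over the WAT arrays, from 8.52 to 10.44 on EPA/DHA, from 8.65 to 11.07 on corn oil and from 8.74 to 10.98 on the low-fat diet. Of the 7, only 5 passed the filter on dim probes in WAT. Alb, at 7.02 to 7.13, and Fgb, at 6.99 to 7.19, stayed at the floor of the arrays.

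Ubd was high in WAT under the corn-oil HFD and lower in all other groups. In WAT of the EPA/DHA HFD its log2 level was 8.11, 8.25, 7.62 and 7.85 in the 4 arrays. On the corn-oil HFD it was 10.14, 10.55, 10.18 and 11.04, and on the low-fat diet 7.66, 8.01, 7.96 and 8.05. Every corn-oil array therefore lay above every array of the other diets, while the arrays of the EPA/DHA and low-fat diets overlapped. The group means were 7.96 ± 0.28 on EPA/DHA, 10.48 ± 0.41 on corn oil and 7.92 ± 0.18 under low-fat feeding (SD, n = 4 each). In a bulk tissue, more cells that carry Ubd RNA and more Ubd RNA per cell cannot be told apart.

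Corn oil minus low-fat, the difference in WAT was 2.56, which is 5.89-fold if the deposited scale is a plain log2. EPA/DHA minus corn oil it was -2.52, so that Ubd was 5.73-fold lower on EPA/DHA than on corn oil on the same reading of the scale. Between EPA/DHA and low-fat WAT the difference was 0.04, or 1.03-fold, and smaller than the SD of either group. The corn-oil arrays enter both large differences, which therefore share their spread. Among 13349 genes kept in WAT after a filter on dim probes, Ubd ranked 2 by size among the higher genes of the corn-oil and low-fat comparison, after Tph2, and 1 among the lower genes of the EPA/DHA and corn-oil comparison. Both ranks restate what the gene was chosen for.

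In 340 genes, 2.55% of those kept, all 4 corn-oil WAT arrays lay above the other 8. The gap between the lowest corn-oil array and the highest of the other 8 was 1.89 log2 units for Ubd. The next widest gaps among the 340 genes were 1.10 for Tph2, 0.88 for Ear3, 0.72 for Col16a1 and 0.67 for Rnase2a. Ear3 and Rnase2a belong to a family of near-identical ribonuclease genes, so the array may not tell them from their relatives.

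**Figure D1:**
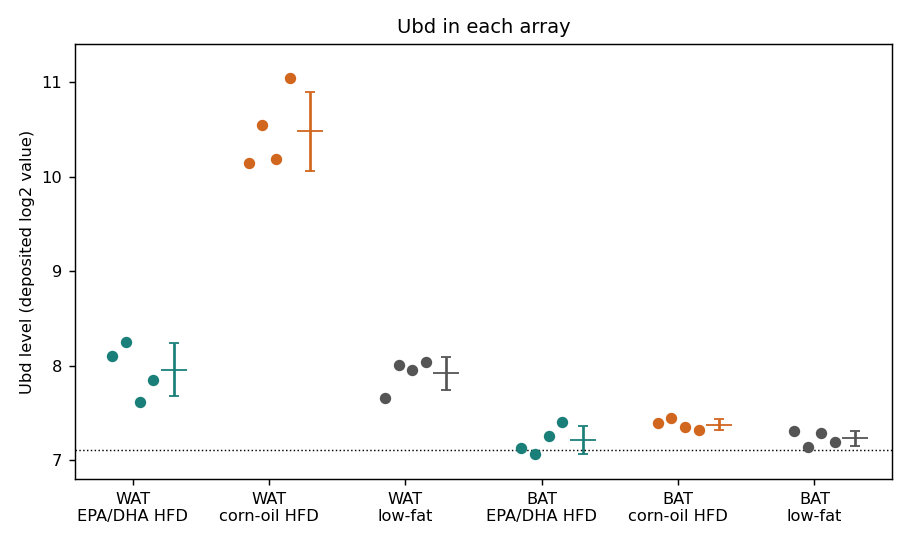
Ubd log2 level (vertical axis, deposited log2 value) in each of the 24 arrays, grouped by tissue and diet, with the mean and SD of each group of 4 beside its points; the dotted line is the level of the filter on dim probes, 7.11. The 4 corn-oil WAT arrays sit between 10.14 and 11.04, the other WAT arrays between 7.62 and 8.25, and all BAT arrays between 7.07 and 7.45.

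Both WAT arrays with raised brown adipocyte markers had the highest Ubd level of their group, 8.25 on EPA/DHA and 11.04 on corn oil. Without these 2 arrays the corn-oil minus low-fat difference was 2.37 and the EPA/DHA minus corn-oil difference -2.43, and EPA/DHA minus low-fat it was -0.06. Leaving out any single WAT array of the 2 diets compared gave 2.37 to 2.67 for corn oil minus low-fat and -2.63 to -2.33 for EPA/DHA minus corn oil. All these differences from corn oil are larger than the SDs within the groups. The part of whatever raised the 5 kept liver markers in some WAT arrays was not tested.

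In BAT, whose arrays did not enter the choice of the gene, Ubd was close to the floor of the arrays. Its log2 level was 7.13, 7.07, 7.26 and 7.41 on EPA/DHA. On corn oil the 4 arrays had 7.40, 7.45, 7.35 and 7.32, and on the low-fat diet 7.31, 7.14, 7.29 and 7.19. The corn-oil arrays lay just above the low-fat arrays, the lowest corn-oil array at 7.32 and the highest low-fat array at 7.31, and the EPA/DHA arrays overlapped with both. Means were 7.22 ± 0.15 on EPA/DHA, 7.38 ± 0.06 on corn oil and 7.23 ± 0.08 under low-fat feeding (SD, n = 4 each), beside a filter level of 7.11.

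None of the 3 diet comparisons of Ubd in BAT passed a threshold of 0.05 on the adjusted p of limma, a linear model fitted across all probes. Corn oil minus low-fat, the difference was 0.14 ± 0.07 (SE), with an adjusted p of 0.639 in limma, an unadjusted p of 0.0606 and a 95% interval of -0.01 to 0.30. EPA/DHA minus corn oil it was -0.16 ± 0.07, with an adjusted p of 0.999, an unadjusted p of 0.0391 and an interval of -0.31 to -0.01. For EPA/DHA minus low-fat limma gave -0.02 ± 0.07, with an adjusted p of 0.989 and an interval of -0.17 to 0.13. Near the floor the array can understate a change. No test of whether the diet differences of Ubd differed between the tissues is given, since its WAT differences entered its choice. In BAT, limma called 0 of 13400 genes for corn oil minus low-fat (1220 at an unadjusted p under 0.05) and 0 for EPA/DHA minus corn oil (668 unadjusted), while groups did not overlap in 5.15% of genes in the corn-oil comparison. The skeletal muscle markers of the BAT arrays, given above, varied by far more than Ubd did, and their part in these small differences was not tested.

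By group mean, Ubd was highest in corn-oil WAT, then in EPA/DHA WAT, low-fat WAT, corn-oil BAT, low-fat BAT and EPA/DHA BAT. EPA/DHA WAT and low-fat WAT, 0.04 apart, overlapped, as did low-fat BAT and EPA/DHA BAT, 0.02 apart. All other neighbours in this order had ranges that did not overlap, with 2.52 between corn-oil and EPA/DHA WAT, 0.54 between low-fat WAT and corn-oil BAT, and 0.14 between corn-oil and low-fat BAT. WAT lay above BAT on every diet, by 0.74 (1.67-fold) on EPA/DHA, 3.10 (8.57-fold) on corn oil and 0.69 (1.61-fold) on the low-fat diet. These folds hold if the deposited scale is a plain log2, and the BAT levels near the floor can understate them. On each diet the lowest WAT array exceeded the highest BAT array, by 0.21 on EPA/DHA, 2.70 on corn oil and 0.35 under low-fat feeding. The share of all genes whose WAT and BAT arrays do not overlap was not counted, so this separation is a description only.

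The genes around FAT10 were examined as 9 lists of 141 genes, from the cytokines that induce it to the proteasome that receives its targets. A named probe was found for 127 of them and 115 passed the filter in WAT. Corn oil minus low-fat in WAT, 3 of the 115 genes rose, Irf8, Sod2 and Tnfaip2, and none fell, which is 2.61% of the lists beside 2.05% of all 13349 genes that rose and 3.87% called either way (limma, adjusted p under 0.05). At an unadjusted p under 0.05 there were 25 of the 115, beside 2629 of all genes. The median difference of the 115 was 0.02 log2 units and that of all genes -0.002. The groups did not overlap in 11 of the 115, all higher on corn oil, or 9.57% beside 6.54% of all genes in that direction and 12.4% in either. No listed gene differed by more than 0.46 either way, against 2.56 for Ubd.

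**Figure D2:**
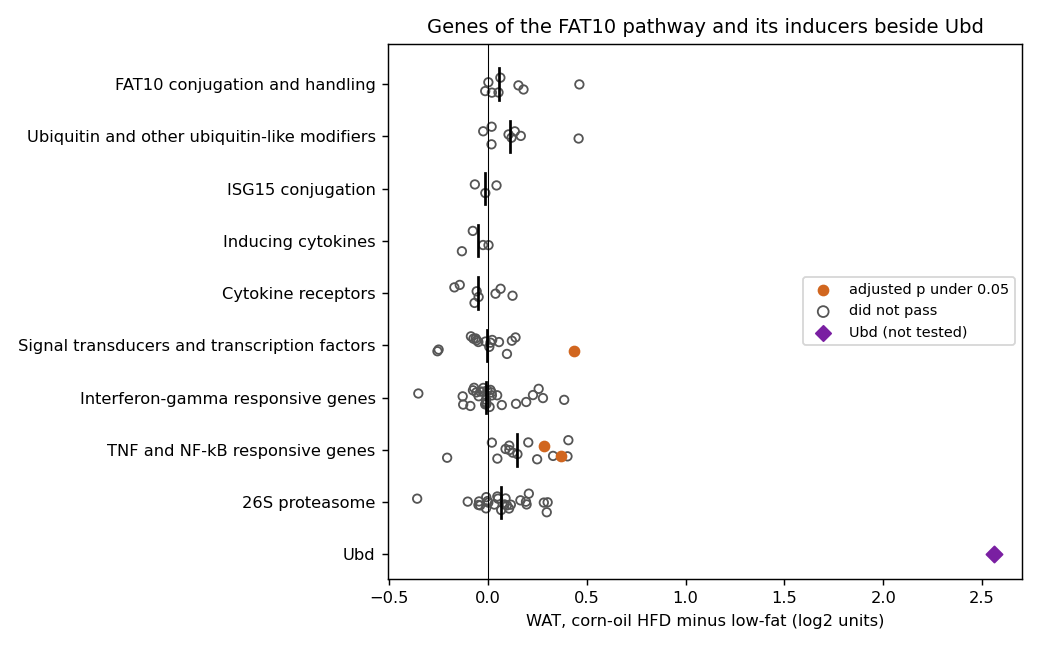
Corn-oil HFD minus low-fat difference in WAT (horizontal axis, log2 units) of each kept gene of the 9 lists, 1 row per list, with the list median as a vertical bar, and of Ubd in the lowest row. Filled points are the 3 genes with an adjusted p under 0.05 and open points the others; all lie within 0.46 of 0, and Ubd, which was not tested here, is at 2.56.

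Of the 7 inducing cytokines, 3 did not pass the filter in WAT. Tnf, which encodes TNF, ranged from 7.03 to 7.19 over the 12 WAT arrays and was 1 of these, with Il6 and Ifnb1, so no change in them could be tested. Ifng, which encodes interferon gamma, passed the filter narrowly, with 7.14 ± 0.05 on EPA/DHA, 7.11 ± 0.06 on corn oil and 7.11 ± 0.03 under low-fat feeding (SD, n = 4 each), and a corn-oil minus low-fat difference of 0.00 ± 0.03 (SE, limma adjusted p = 0.980). Il18, named after its value was seen, ranged from 7.48 to 7.88. The 4 cytokines that were kept had a median difference of -0.05 and none passed. Levels near the floor do not show that a cytokine was absent from the tissue.

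Receptors of these cytokines showed no called change. Ifngr1, a chain of the interferon gamma receptor, was at 9.70 ± 0.10 on corn oil and 9.85 ± 0.16 under low-fat feeding, a difference of -0.14 ± 0.09 (SE, limma adjusted p = 0.4997). Tnfrsf1a, the main TNF receptor, differed by 0.06 ± 0.07 (limma adjusted p = 0.723), and none of the 8 kept receptors passed. Irf1, a transcription factor induced by interferon gamma, was at 10.73 ± 0.32 on EPA/DHA, 10.83 ± 0.19 on corn oil and 10.92 ± 0.37 under low-fat feeding, and its corn-oil minus low-fat difference was -0.09 ± 0.20 (limma adjusted p = 0.896).

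Irf8, a transcription factor of macrophages, dendritic cells and B cells, was the one gene of the 16 kept transducers and factors that rose on corn oil. Its log2 level in WAT was 7.43, 7.82, 7.45 and 7.59 on EPA/DHA, 7.99, 7.997, 7.75 and 8.09 on corn oil, and 7.44, 7.51, 7.54 and 7.61 on the low-fat diet. The corn-oil arrays all lay above the low-fat arrays, while 1 EPA/DHA array reached into the corn-oil range. Limma gave 0.43 ± 0.09 for corn oil minus low-fat (adjusted p = 0.0344) and -0.39 ± 0.09 for EPA/DHA minus corn oil (adjusted p = 0.0641, not passed). Leaving out single arrays gave adjusted p-values from 0.0293 to 0.0923 for the first of these, and the call was lost in 7 of 8 cases.

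Of 15 kept genes that respond to TNF through NF-kB, 2 rose on corn oil against low-fat, where 2.05% of all genes did, 14 had positive differences and the median was 0.15. In the same comparison 11 of 13 kept macrophage markers had positive differences, with a median of 0.45, and their part in this was not tested. Sod2, the mitochondrial superoxide dismutase, was at 12.64 ± 0.11 on EPA/DHA, 12.71 ± 0.07 on corn oil and 12.42 ± 0.10 under low-fat feeding (SD, n = 4 each), and rose by 0.29 ± 0.06 (SE, limma adjusted p = 0.0364) against low-fat. Tnfaip2, an early TNF-induced gene, was at 7.78 ± 0.16 on EPA/DHA, 8.01 ± 0.07 on corn oil and 7.65 ± 0.12 on low-fat and rose by 0.37 ± 0.08 (SE, limma adjusted p = 0.0373). EPA/DHA minus corn oil, Sod2 differed by -0.07 (limma adjusted p = 0.693) and Tnfaip2 by -0.23 (limma adjusted p = 0.197). Without a single array of the compared diets, the adjusted p of limma ran from 0.0431 to 0.107 for Sod2 and from 0.0267 to 0.108 for Tnfaip2, and with no filter on dim probes none of the 3 calls passed. The chemokine Ccl2, named after its value was seen, was 0.40 ± 0.11 higher and did not pass (limma adjusted p = 0.0969).

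Of 28 kept genes that respond to interferon gamma, none passed (limma, 4 at an unadjusted p under 0.05), 12 had positive and 16 negative differences, and the median was -0.01. The immunoproteasome subunits Psmb8 and Psmb9, induced by the same cytokine as Ubd, differed by 0.14 ± 0.16 (limma adjusted p = 0.753) and -0.08 ± 0.15 (limma adjusted p = 0.871) between corn-oil and low-fat WAT. Psmb8 was at 9.61 ± 0.18 on EPA/DHA, 9.80 ± 0.20 on corn oil and 9.66 ± 0.33 under low-fat feeding, with overlapping arrays. At the ends of the list, and chosen after their values were seen, stood Cd274, the ligand of the checkpoint receptor PD-1, at 0.39 ± 0.14 and the chemokine Cxcl9 at -0.35 ± 0.11, neither of which passed (limma adjusted p = 0.205 and 0.122).

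The machinery that attaches FAT10 showed no called change. Uba6, its activating enzyme, was at 9.40 ± 0.41 on EPA/DHA, 9.91 ± 0.16 on corn oil and 9.45 ± 0.32 under low-fat feeding (SD, n = 4 each). Its differences were 0.46 ± 0.20 for corn oil minus low-fat (SE, limma adjusted p = 0.290) and -0.51 ± 0.20 for EPA/DHA minus corn oil (limma adjusted p = 0.263), with overlapping arrays in both. Ube2z, its conjugating enzyme, was at 7.28 ± 0.05 on corn oil and 7.29 ± 0.05 under low-fat feeding, a difference of -0.01 ± 0.04 (limma adjusted p = 0.909). These Ube2z levels are near the floor, where the array can understate a change. Sqstm1, the autophagy receptor p62 to which FAT10 is attached, differed by 0.15 ± 0.11 (limma adjusted p = 0.580), and Nub1, which escorts FAT10 to the proteasome, had no named probe. Mad2l1, a spindle checkpoint protein bound by FAT10 and named after its value was seen, came close to the threshold at 0.18 ± 0.04 (limma adjusted p = 0.0534).

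Among 8 kept members of the list of ubiquitin and other ubiquitin-like modifiers none passed (limma, 2 at an unadjusted p under 0.05), and the median difference was 0.11. Isg15, the interferon-induced modifier that also holds a pair of ubiquitin-like domains, was at 7.52 ± 0.08 on corn oil and 7.50 ± 0.14 under low-fat feeding, a difference of 0.02 ± 0.07 (limma adjusted p = 0.944). The 3 kept genes of Isg15 conjugation had a median of -0.01. Of 25 kept subunits of the 26S proteasome none passed (limma, 7 at an unadjusted p under 0.05), with a median of 0.07 and a range from -0.36 for Psmb1 to 0.30 for Psmb5.

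In the remaining comparisons limma called no gene of the lists. EPA/DHA minus corn oil in WAT, 0 of 115 genes passed, beside 2.34% of all genes, and the median was -0.01. At an unadjusted p under 0.05 there were 14 of the 115, beside 2348 of all 13349 genes. EPA/DHA minus low-fat in WAT, 0 passed, beside 0.03% of all genes, and 14 did unadjusted, beside 1209 of all genes. In BAT, 0 of 115 passed in each comparison. Among all BAT genes 0% passed for corn oil minus low-fat, 0.00746% for EPA/DHA minus low-fat and 0% for EPA/DHA minus corn oil. Unadjusted, there were 14, 9 and 7 of the 115 in the same order, beside 1220, 639 and 668 of all 13400 genes. The effect of a diet did not pass as different between WAT and BAT for any of 116 listed genes kept in either tissue, the lowest adjusted p of limma's interaction test being 0.11. Of all genes, 0.652% passed that test for corn oil minus low-fat, 0.00701% for EPA/DHA minus low-fat and 0.252% for EPA/DHA minus corn oil.

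The genes most like Ubd over the 12 WAT arrays were H2-DMb2, Nup210, H2-DMb1, Col16a1, H2-DMa, Pcolce2, Ear3 and Tph2, with Pearson r from 0.96 to 0.98. They were taken from 607 genes whose values spanned at least 1 log2 unit over these arrays, whose median r with Ubd was 0.27 and of which 16 had an r above 0.9. The arrays fall into corn-oil and other arrays, so such an r mainly reflects the difference between these. Taken as deviations from the mean of each diet, the r with Ubd was 0.63 for H2-DMb2, 0.70 for Nup210, 0.78 for H2-DMb1 and 0.44 for Col16a1. It was 0.54 for H2-DMa, 0.55 for Pcolce2, 0.48 for Ear3 and 0.55 for Tph2. Over the 8 arrays of the EPA/DHA and low-fat diets alone it ran from 0.31 for H2-DMa to 0.76 for Pcolce2.

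Of these 8, 3 encode chains of H2-DM, the protein that loads peptides onto MHC class II molecules inside antigen-presenting cells. H2-DMb2 was at 8.39, 8.50, 8.10 and 8.39 on EPA/DHA, 9.19, 9.12, 9.25 and 9.45 on corn oil, and 8.33, 8.32, 8.50 and 8.24 on the low-fat diet. H2-DMb1 averaged 8.59 ± 0.15 on EPA/DHA, 9.48 ± 0.27 on corn oil and 8.62 ± 0.08 under low-fat feeding (SD, n = 4 each), and H2-DMa 8.90 ± 0.14 on EPA/DHA, 9.67 ± 0.14 on corn oil and 8.97 ± 0.02 on low-fat. All 3 genes had every corn-oil array above every other WAT array, with the EPA/DHA and low-fat arrays overlapping, as Ubd had. Ciita, the master regulator of MHC class II genes and named after its value was seen, was 0.28 ± 0.11 higher on corn oil than on low-fat (limma adjusted p = 0.231, not passed).

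Tph2, an enzyme of serotonin synthesis best known from neurons, was at 7.45, 8.91, 7.79 and 8.16 on EPA/DHA, 10.01, 10.37, 10.45 and 11.13 on corn oil, and 7.68, 8.12, 8.11 and 7.28 on the low-fat diet. Its highest EPA/DHA and highest corn-oil arrays were the same 2 arrays as for Ubd, those with raised brown adipocyte markers. Nup210, a membrane protein of the nuclear pore, averaged 7.51 ± 0.16 on EPA/DHA, 8.56 ± 0.26 on corn oil and 7.41 ± 0.10 under low-fat feeding. The collagen gene Col16a1 averaged 8.55 ± 0.19 on EPA/DHA, 9.64 ± 0.14 on corn oil and 8.52 ± 0.13 on low-fat. Pcolce2, an enhancer of collagen processing, averaged 9.20 ± 0.26 on EPA/DHA, 10.19 ± 0.09 on corn oil and 9.18 ± 0.15 on low-fat. At the other end stood Adig (r = -0.93), a small adipocyte protein, Sfxn1 (-0.92), a mitochondrial serine transporter, S100a1 (-0.91), a calcium-binding protein, and Eci3 (-0.91), an enzyme of fatty acid oxidation.

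**Figure D3:**
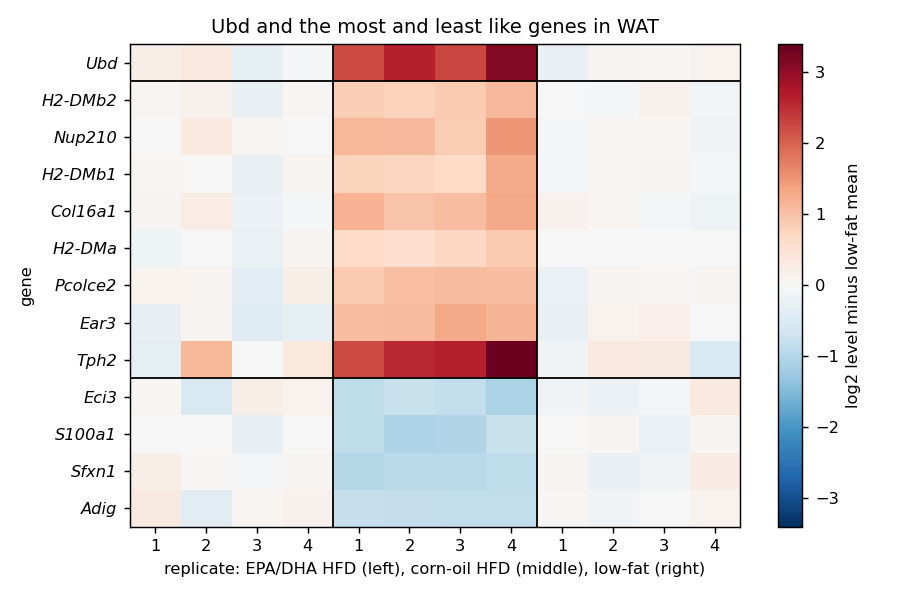
Level of Ubd, the 8 most like and the 4 least like genes (rows) in each of the 12 WAT arrays (columns, by diet and replicate), as log2 level minus the mean of the gene's low-fat arrays (colour). The 4 corn-oil columns stand apart in every row, with higher values for Ubd and the most like genes and lower values for the least like; the rows were picked for this pattern.

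In BAT, whose arrays did not enter the choice of these genes, the same 8 genes all had positive corn-oil minus low-fat differences, from 0.06 to 0.32, while 48.2% of all BAT genes did. Tph2 passed the BAT filter of 7.11 only through its corn-oil mean of 7.18, with 7.07 on EPA/DHA and 7.08 on low-fat. The filter therefore favoured its positive sign. For H2-DMb2 the difference ran from -0.00987 to 0.12 without single arrays, so its sign could turn. None passed, the lowest adjusted p of limma being 0.256, for Nup210. Nup210 in BAT was at 7.58 ± 0.15 on EPA/DHA, 7.83 ± 0.11 on corn oil and 7.50 ± 0.04 under low-fat feeding (SD, n = 4 each), and the corn-oil and low-fat arrays of Nup210 and of Ear3 did not overlap. The 8 genes were picked together for being alike and share their arrays, so their common sign counts as 1 observation. Over the BAT arrays Ubd spanned 0.38 log2 units, too little to look for genes like it there.

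The genes beside Ubd on the chromosome showed no called change where they could be tested. Of the 10 annotated genes on either side, 12 were protein coding, mostly olfactory receptors, 12 had a probe and 4 were kept in WAT, Olfr90, Olfr91, Olfr94 and H2-M3. None of the 4 passed, with corn-oil minus low-fat differences from -0.06 to 0.03 (lowest limma adjusted p 0.702) and EPA/DHA minus corn-oil differences from -0.03 to 0.02 (lowest limma adjusted p 0.788). Olfr90, Olfr91 and Olfr94 had WAT group means of 7.11 to 7.15, near the floor, where the array can understate a change. Of the 4, only H2-M3 stood clear of it. H2-M3, an MHC class I gene that presents formylated peptides, was at 8.03 on EPA/DHA, 8.02 on corn oil and 8.08 under low-fat feeding.

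**Figure D4:**
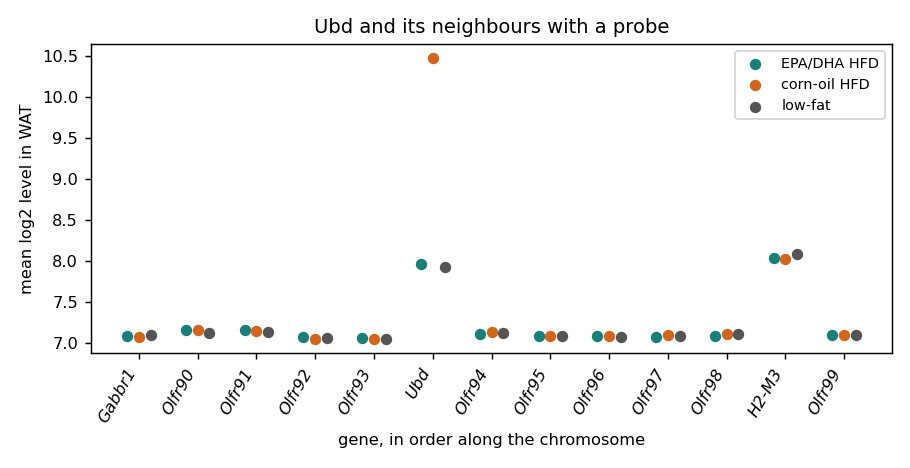
Mean log2 level in WAT (vertical axis) on each diet of Ubd and of its 12 neighbours with a probe, in order along the chromosome but not to scale. Levels of different probes cannot be compared with each other, so each gene is read across its 3 diets. Ubd alone has its corn-oil point (10.48) away from the others, and the neighbours' 3 points lie together. Of the neighbours, 8 did not pass the filter, and the olfactory receptors that passed lay near the floor.

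Markers of immune cells were read beside the WAT result, since FAT10 is known from such cells. Means of a list are over all its markers with a named probe, those below the filter included. The mean log2 level of the 14 macrophage markers, of which 13 were kept, was 8.73 to 9.56 on EPA/DHA, 9.18 to 9.63 on corn oil and 8.85 to 9.08 on the low-fat diet. Every corn-oil array thus lay above every low-fat array, and the EPA/DHA arrays spread over both. Corn oil minus low-fat, 11 of the 13 were positive and 2 negative, from -0.29 to 2.09, with a median of 0.45. In limma 0 passed, and 6 of the 13 had an unadjusted p under 0.05, beside 2629 of all 13349 genes. Itgax was not kept. Among the positive macrophage genes, and named after their values were seen, Adgre1 differed by 0.60 ± 0.22 (limma adjusted p = 0.194) and Mpeg1 by 0.78 ± 0.23 (limma adjusted p = 0.106). Gpnmb, known from lipid-laden macrophages and also named after its value was seen, differed by 2.09 ± 0.76 (limma adjusted p = 0.191). EPA/DHA replicates 1 to 4 had macrophage means of 9.56, 9.54, 8.73 and 8.88 and Ubd levels of 8.11, 8.25, 7.62 and 7.85. How the macrophage means and the Ubd levels go together was not tested.

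The 9 dendritic cell markers, 8 of them kept and Xcr1 below the filter, had means of 7.33 to 7.41 on EPA/DHA, 7.40 to 7.47 on corn oil and 7.35 to 7.41 on the low-fat diet. Their one called gene for corn oil minus low-fat, and the only one among all 68 kept markers of the 13 cell type and tissue lists, was Cd209a, a lectin of dendritic cells. Of all genes, 2.05% were called higher and 3.87% either way in this comparison. It was at 7.61 ± 0.06 on corn oil and 7.38 ± 0.04 under low-fat feeding, a difference of 0.23 ± 0.05 (SE, limma adjusted p = 0.0332). Of the 8 kept dendritic cell markers, 6 had positive and 2 negative corn-oil minus low-fat differences, from -0.10 to 0.28, with a median of 0.04. At an unadjusted p under 0.05 in limma there were 4 of the 8, beside 2629 of all 13349 genes. Ccr7, a receptor of mature dendritic cells and 1 of the 2 negative, was near the floor, at 7.14 to 7.23 over the WAT arrays. Ccr7 differed by -0.04 ± 0.02 (limma adjusted p = 0.468). B cell markers were close to the floor, with 3 of 6 kept, Ms4a1, Pax5 and Cr2 below the filter, and means over all 6 of 7.18 to 7.29 on EPA/DHA, 7.20 to 7.22 on corn oil and 7.20 to 7.32 on the low-fat diet. The 8 T cell markers, 6 of them kept and Cd8a and Cd5 below the filter, had means of 7.51 to 7.57 on EPA/DHA, 7.51 to 7.63 on corn oil and 7.52 to 7.55 on low-fat. Cd8b1, at 10.05 to 10.65 over the WAT arrays, carried these means. The highest of the other T cell markers, Cd3g, averaged 7.28 in WAT, so the rest were near the floor. The part of macrophages or dendritic cells in the Ubd difference was not tested.

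**Figure D5:**
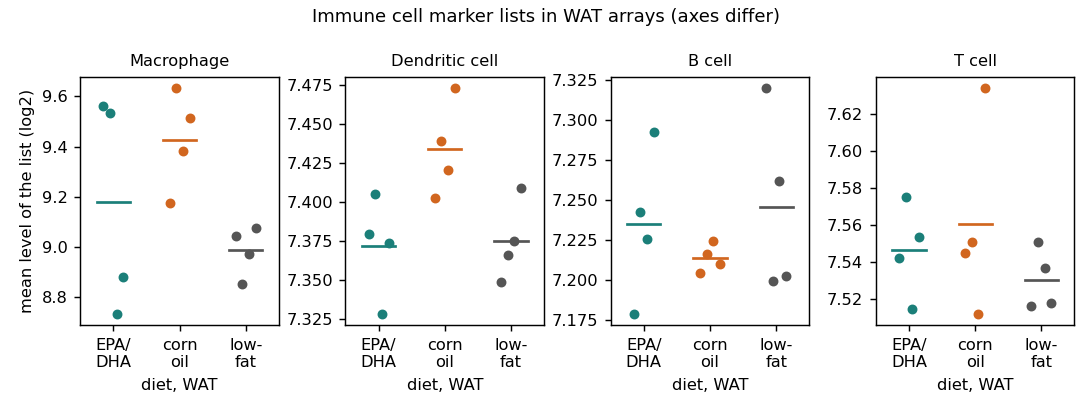
Mean log2 level of all markers with a named probe of 4 immune cell types (vertical axis, different in each panel) in each WAT array by diet, with the group mean as a line. Corn-oil macrophage means of 9.18 to 9.63 lie above the low-fat range of 8.85 to 9.08, and the EPA/DHA arrays span both; the other 3 panels cover much narrower ranges.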

How the data were processed

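RNA of WAT and BAT from mice on 3 diets was measured on 24 Illumina mouse arrays with 1 dye. For each probe the authors deposited a log2 value, processed with lumi 2.18.0 per the submitters' processing notes; every array had a median of 7.14, and whether the scale is a plain or a variance-stabilised log2 is not given in the sources used here. Of 45281 probes, 34885 had 1 gene symbol, 18 several and 10378 were unnamed here; 34818 matched RefSeq genes of GRCm38.p6. A gene stands for its probe with the highest mean over all arrays, which left 19053 genes.

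Diets were compared within a tissue with limma 3.58.1 in R 4.3.3 (1 mean per diet, two-sided, Benjamini-Hochberg over the 27168 probes kept), after dropping probes with a mean below the 40th percentile (7.11). The fit was tested on simulated data. Replicates are separate mice as far as the labels say, p-values measure only the spread between these arrays, and their number limits the precision. Ubd, the gene lists and the tests were chosen with earlier results of these data known. Named genes are Ubd, the 8 genes most and 4 least like it, list members that passed, 12 genes with a set role in the FAT10 pathway (1 of them not reported here) and, as a group, the 20 neighbours; others are said to be chosen after their values were seen. Alternatives were other filters, normalisations, priors, array weights, 1 fit over all arrays, the replicate number as a block and leaving out arrays. Motifs were searched with Python 3.11.15. Probe sequences and detection calls were not used here.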

Additional observations from a re-analysis of the deposited data

Results flagged for a closer look

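In 105 groups of 4 arrays over the 26 genes named by rule, 6 values, from 5 arrays, stood apart from the rest of their group by Dixon's test, where chance alone gives about 1 in 20 groups. In corn-oil WAT, H2-DMb1 was at 9.89 in replicate 4, against 9.31 to 9.37 in the others of its group; this is the array with raised brown adipocyte markers and the highest Ubd level. In EPA/DHA WAT, S100a1 was at 11.65 in replicate 3, where the others had 11.91 to 11.95. In low-fat WAT, Tnfaip2 was at 7.82 in replicate 2, where the others had 7.57 to 7.60. In EPA/DHA BAT, replicate 4 had 7.63 for Ear3, where the others had 7.22 to 7.29, and 7.05 for Tph2, where the others had 7.08. In low-fat BAT, H2-DMb2 was at 7.66 in replicate 2, where the others had 7.54. No group of Ubd itself stood apart in this way.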

How the results depend on the processing

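Ubd's WAT differences under all alternatives run were 2.37 to 2.67 for corn oil minus low-fat, -2.63 to -2.33 for EPA/DHA minus corn oil and -0.06 to 0.15 for EPA/DHA minus low-fat. No alternative made a BAT comparison of Ubd pass; without single arrays EPA/DHA minus low-fat in BAT ran from -0.0811 to 0.0317, changing sign in 4 of 8 cases, and corn oil minus low-fat from 0.11 to 0.17. The 3 listed genes called for corn oil minus low-fat in WAT became 0 without the filter on dim probes, which tests more probes, 4 with a filter at the 60th percentile, 2 with a trended and robust prior, 2 without the 2 WAT arrays with raised brown adipocyte markers and 0 to 2 without single arrays. For EPA/DHA minus corn oil in WAT the count of 0 became 1 with a filter at the 60th percentile, 2 with a trended and robust prior, 2 in 1 fit over all 24 arrays, 1 without the 2 arrays with raised brown adipocyte markers (chosen after seeing the data) and 0 to 1 without single arrays; Irf8 passed in the first 4 of these settings and in 2 of the 8 fits without a single array. Corn oil minus low-fat, Sod2 also lost its call with that prior (limma adjusted p = 0.111), and Tnfaip2 in the fit over all arrays (0.139) and without the 2 arrays with raised brown adipocyte markers. The cause was not tested. With the filter at the 60th percentile Ifng in WAT and Tph2 in BAT were not kept and have no value. Among named genes that had not passed, the corn-oil minus low-fat sign turned without single arrays for Ifng (-0.0173 to 0.0264, and -0.00365 without those 2 arrays), Irf1 (-0.203 to 0.0727), Psmb9 (-0.190 to 0.00109) and Ube2z (-0.0358 to 0.00334) in WAT and for H2-DMb2 (-0.00987 to 0.12) in BAT. With the replicate number as a block the counts of called list genes in WAT stayed at 3 for corn oil minus low-fat and 0 for the other comparisons, and limma's adjusted p-values for Ubd in BAT were 0.692 for corn oil minus low-fat, 0.990 for EPA/DHA minus low-fat and 0.999 for EPA/DHA minus corn oil. Same-numbered arrays did not all deviate together (correlations of -0.27 to 0.55 in WAT and -0.36 to 0.44 in BAT, with 4 of 12 and 3 of 12 arrays closest to their own number), so the numbers were not taken as pairs. Values near the floor of about 7 limit what BAT Ubd can show, and in WAT Ifng, Tnf, Ube2z and the olfactory receptors.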
